A study of Homo sapiens with 2 samples.

Results

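The Kruppel-like factor genes examined here were KLF2, KLF3, KLF4, KLF6, KLF7, KLF9, KLF10, KLF11, KLF13 and KLF16, taken as every probe set whose only annotated gene symbol was one of these 10 names. They had 32 probe sets among the 54675 of the array, and all 10 were measured, out of 12705 measured genes. Signals came from Eol1 cells, an eosinophilic leukaemia line that expresses the fusion kinase FIP1L1-PDGFRA. The treated culture received 100 nM Glivec (imatinib, which blocks the kinase activity of PDGF receptors, KIT and ABL) over 4 h, and the other culture was left untreated. Both were grown in serum-containing RPMI medium, and both carry the fusion. Each group has 1 array of 1 culture of 1 line, so no difference has a replicate check and no test between groups was made. A bulk signal cannot tell fewer expressing cells from less RNA per cell.

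Kruppel-like factors are transcription factors with zinc fingers at the C terminus that bind CACCC and GC-rich boxes in promoters, the same kind of site that the SP factors bind. The fingers are much alike, and the N-terminal parts set what each protein does. KLF2, KLF4, KLF6 and KLF7 act mainly as activators, KLF3 recruits the corepressor CtBP, and KLF9, KLF10, KLF11, KLF13 and KLF16 recruit the corepressor SIN3A. In blood cells KLF2 is known for keeping lymphocytes and monocytes quiescent and KLF4 for monocyte differentiation.

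RefSeq promoter windows (GRCh38.p14, 250 bases before to 50 after a transcript start) were listed for 8 of the 10 genes (not KLF3 and KLF10), and those of KLF2, KLF6 and KLF7 are shown because these 3 activators had the highest ratios of their class. Each reads 5′ to 3′ on the gene's strand. Capitals mark a MEF2 site in KLF2, GC boxes (GGGCGG) in KLF6 and CACCC boxes in KLF7, which read GGGTG on the strand shown. A different motif is marked in each window. GC boxes, on either strand, numbered 6 in the KLF2 window, where they are left in lower case, 2 in the KLF6 window and 0 in the KLF7 window shown. Another listed KLF7 window, not shown, had 4, and the rest had 0. The KLF2 window is chr19:16324576-16324875 on the + strand, the KLF6 window is chr10:3785160-3785459 on the - strand, and the KLF7 window is chr2:207165899-207166198 on the - strand.
KLF2: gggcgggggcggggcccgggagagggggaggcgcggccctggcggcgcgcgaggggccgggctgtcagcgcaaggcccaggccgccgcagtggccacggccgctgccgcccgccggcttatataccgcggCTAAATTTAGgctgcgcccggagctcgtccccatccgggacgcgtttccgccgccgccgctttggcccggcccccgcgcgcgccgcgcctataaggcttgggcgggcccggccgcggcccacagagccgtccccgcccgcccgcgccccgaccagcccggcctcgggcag
KLF6: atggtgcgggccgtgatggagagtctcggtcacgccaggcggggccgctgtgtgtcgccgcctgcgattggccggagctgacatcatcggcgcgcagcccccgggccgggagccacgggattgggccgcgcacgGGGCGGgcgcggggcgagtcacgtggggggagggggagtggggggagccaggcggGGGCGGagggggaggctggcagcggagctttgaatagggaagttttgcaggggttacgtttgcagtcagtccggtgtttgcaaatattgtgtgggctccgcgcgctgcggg
KLF7: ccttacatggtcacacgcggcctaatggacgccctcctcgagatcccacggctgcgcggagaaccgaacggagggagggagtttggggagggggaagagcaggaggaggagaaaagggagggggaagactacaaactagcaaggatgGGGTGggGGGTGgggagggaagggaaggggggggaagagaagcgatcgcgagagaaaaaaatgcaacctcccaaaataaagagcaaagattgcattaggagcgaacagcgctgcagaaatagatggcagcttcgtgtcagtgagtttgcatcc

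The KLF7 window is 1 of 4 listed for that gene, and the signals do not say which start was in use. Both strands of 35116 promoter windows were searched for each motif, with GC boxes and CACCC boxes kept as separate motifs that may overlap. The 8 genes had 12 windows. A GC box was present in 8 of the 12, beside 45.0% of all windows, and a CACCC box in 5 of the 12, beside 59.9%. The members' windows had a median GC content of 70.3%, beside 58.7% over all windows. The MEF2 site, present in 2.99% of all windows, was matched in KLF2 alone among the 8. The core GTAAACA that FOXO proteins bind was in none of the members' windows and in 3.42% of all windows. GC content in these windows was 80.7% for KLF2, 70.7% for KLF6 and 56.7% for the KLF7 window shown. A match describes letters in these windows only.

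KLF7 was the single member past 2-fold. Of the 10 genes, 1 was at least 2-fold higher on the Glivec array and 0 were at least 2-fold lower, beside 3.13% and 2.63% of all measured genes. At 1.5-fold, 4 members were higher (KLF7, KLF6, KLF9 and KLF2) and 0 lower, beside 13.5% and 8.33% of all genes. At 3-fold there was no member in either direction, beside 0.441% of all genes higher and 0.677% lower. The log2 ratio of Glivec over untreated was positive for 6 members and negative for 4, and 59.0% of all genes were positive. The members' median log2 ratio was 0.18, beside 0.10 over all genes. These ratios use 1 probe set per gene, the one with the highest mean signal, with probe sets marked for cross-hybridisation (_x_at) passed over where another was present. Signals under 13.7, the median of all signals on both arrays, were raised to that floor.

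**Figure D1:**
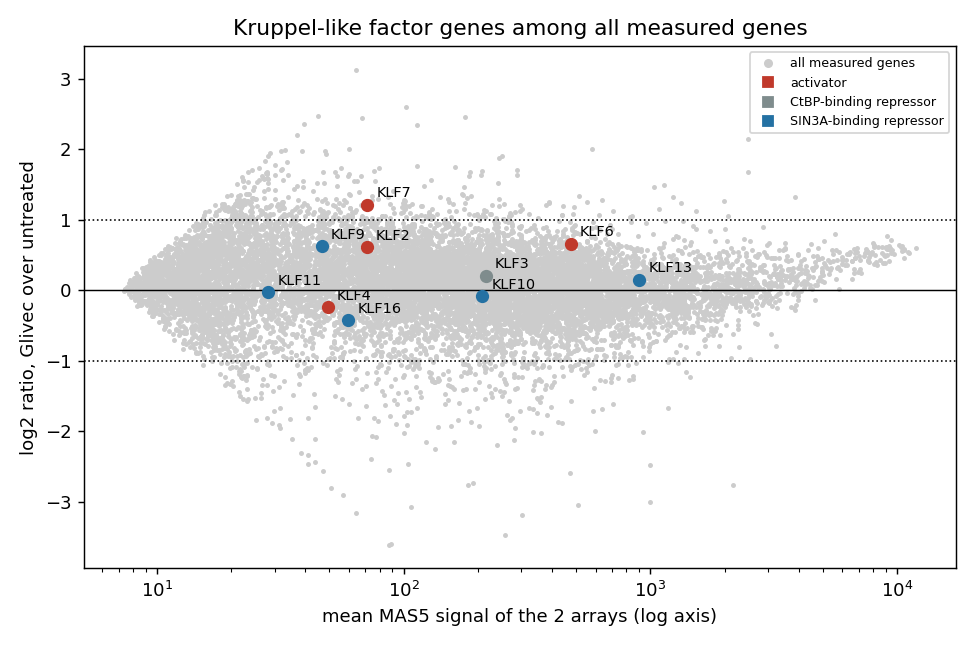
Mean MAS5 signal of the 2 arrays (x axis, log scale) against the log2 ratio of Glivec over untreated (y axis), for all 12705 measured genes in grey and the 10 Kruppel-like genes coloured by class. Dotted lines mark 2-fold, and KLF7 at 1.22 is the one coloured point beyond them.

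Ratios depended on how the arrays were scaled. The 18 hybridisation spike-in probe sets had a median log2 ratio of 0.74 (0.42 to 0.89). When the arrays were scaled to these the median was -0.60 over all genes and -0.56 over the members. That scaling divides every Glivec signal by the same factor. Genes that stay above the floor on both arrays therefore shift down by the same amount, and their order is unchanged. Under that scaling KLF6, KLF9, KLF2, KLF3 and KLF13, positive as deposited, became negative, at -0.08, -0.11, -0.13, -0.53 and -0.59, and KLF7 stayed positive at 0.48. Of all genes past 2-fold, 54.4% were higher with the deposited scaling, 42.2% after quantile normalization, 39.6% after median centring, 39.9% after loess and 1.12% with spike-in scaling. Directions given below are those of the deposited scaling, relative to the bulk of genes. As for the cells, 5 of 9 eosinophil markers with a probe set were above the floor on both arrays (CEBPE, CSF2RB, GATA2, PRG2 and RNASE2), whereas IL5RA and SIGLEC8 were above it on neither. None of the 5 T cell markers was above the floor on both arrays, and 2 of 3 B cell markers were (CD79A and CD79B).

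Among the activators, KLF7, expressed in many tissues and needed for axon outgrowth in mice, was higher with Glivec in all 5 of its probe sets. Its representative probe set had a signal of 99.7 with Glivec and 42.9 without, a 2.32-fold difference and a log2 ratio of 1.22. The brightest KLF7 probe set, whose suffix marks possible cross-hybridisation, had 155 with Glivec against 68.3 without. The other 3 had 78.4, 55.5 and 41.3 with Glivec, against 45.8, 31.3 and 18.5 without. Every KLF7 probe set was thus above the floor on both arrays and higher on the Glivec array, and 3 of the 5 were past 2-fold. Their log2 ratios ran from 0.77 to 1.22 with a mean of 1.03 ± 0.21 (SD over 5 probe sets, which share both cultures and are not replicates). KLF7 ranked 173 from the highest of 12705 genes. Of 425 genes with at least 5 probe sets above the floor on both arrays, 80 (18.8%) had all probe sets positive. A lowest log2 ratio of 0.77 or more was seen in 4 including KLF7 (0.941%). That limit is KLF7's own lowest ratio, so KLF7 is counted by construction and the share is not a test. More than 5 probe sets make such a lowest ratio harder to reach, and all 4 genes had 5.

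KLF6, an early response gene also known as a tumour suppressor, was brighter on the Glivec array in 4 of 5 probe sets. The representative had 584 with Glivec and 369 without, a log2 ratio of 0.66. The next 3 had 425, 238 and 123 with Glivec, against 298, 161 and 103 without, with log2 ratios from 0.26 to 0.56. The dimmest probe set went the other way, with 24.1 against 33.2. KLF6 ranked 1335 from the highest of 12705 genes, with 89.5% of all genes at or below its ratio. It lay in the brightest of 4 signal classes, where 97.0% of genes had a ratio at or below its own.

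KLF2, which holds T cells in quiescence and directs their traffic, had a signal of 85.9 with Glivec and 56.3 without by its brighter probe set, a log2 ratio of 0.61. Its other probe set gave 18.1 on both arrays, close to the floor. The KLF2 probe sets therefore differed from each other by as much as the arrays did. KLF4, known from monocyte differentiation and from reprogramming to pluripotency, was slightly dimmer with Glivec, with 45.1 against 53.2 and a log2 ratio of -0.24. Its other probe set was under the floor on both arrays (1.71 with Glivec and 7.02 without). As a class the 4 activators had a median log2 ratio of 0.64 with 3 positive and 1 negative. Under spike-in scaling it was -0.10 with 1 positive and 3 negative, beside a median of -0.60 over all genes.

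**Figure D2:**
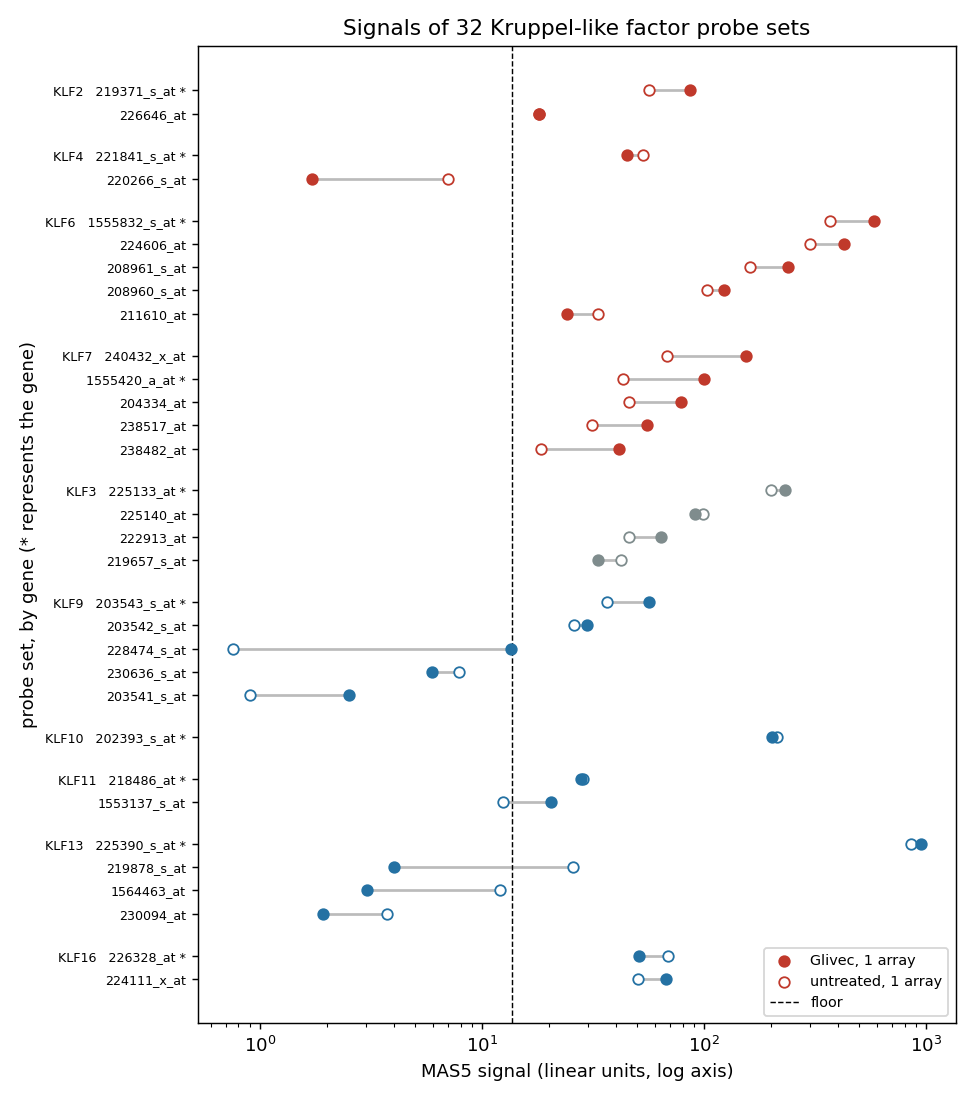
MAS5 signal (x axis, log scale) of each of the 32 probe sets, by gene, on the Glivec array (filled points) and the untreated array (open points), with the floor of 13.7 dashed. Red marks activators, grey KLF3 and blue the SIN3A-binding repressors, and an asterisk marks the probe set that represents the gene. All 5 KLF7 lines run to the right with Glivec.

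KLF3, the CtBP-binding repressor among the members, showed no common direction over its 4 probe sets. Its representative had 231 with Glivec and 200.4 without, a log2 ratio of 0.21. The others had 90.6, 63.7 and 33.4 with Glivec, against 98.9, 46.1 and 42.4 without. Probe sets of positive and of negative ratio alternated, from 0.47 to -0.34, and the gene's difference was smaller than this spread.

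Of the SIN3A-binding repressors, KLF9, a gene induced by glucocorticoid and thyroid hormone, had the highest ratio. Its signal was 56.7 with Glivec and 36.7 without, a log2 ratio of 0.63, and a second probe set had 29.6 against 25.9. The other 3 KLF9 probe sets were under the floor on both arrays, and one of them read 13.4 with Glivec and 0.755 without. The divergent noncoding transcript KLF9-DT was near the floor, with 15.5 against 14.1.

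KLF10, known as an early gene of TGF-beta, was nearly level. Its one probe set had 202 with Glivec and 214 without, a log2 ratio of -0.08. KLF11, a close relative of KLF10 that also responds to TGF-beta, had 28.0 against 28.5, a log2 ratio of -0.03. Another KLF11 probe set was under the floor in untreated cells (12.4) and at 20.4 with Glivec, at least 1.49-fold higher. Both KLF11 probe sets lay near the floor, and they differed in sign.

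KLF13, a regulator of the chemokine gene CCL5 in T cells, gave a bright signal of 948 with Glivec and 854 without, a log2 ratio of 0.15. A dim KLF13 probe set ran opposite, at 4.00 with Glivec and 25.7 without, at least 1.88-fold lower, and the other 2 were under the floor on both arrays. KLF16 had a log2 ratio of -0.42 by its representative, with 51.0 against 68.5. The other KLF16 probe set, with the cross-hybridisation suffix, had 67.3 against 50.2 and a log2 ratio of 0.42, equal in size and opposite in sign. The 5 repressors of this class had a median log2 ratio of -0.03 with 2 positive and 3 negative. Under spike-in scaling it was -0.76 with all 5 negative, beside a median of -0.60 over all genes.

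Over all members, 26 of the 32 probe sets had an array above the floor. Of these 26, 18 had a positive and 8 a negative ratio (69.2% positive), beside 57.3% positive among all such probe sets with 1 gene symbol. All 3 that were at least 2-fold higher belonged to KLF7, beside 2.99% of all such probe sets. No member probe set was at least 2-fold lower, beside 2.56%. Probe sets of opposite sign occurred in 5 members (KLF3, KLF6, KLF11, KLF13 and KLF16). Disagreement among a gene's own probe sets, the one measure of error at hand, had a pooled SD of 0.43 (log2) in the dimmest signal class and 0.29 in the brightest. Measured in the SD of its own signal class, KLF7 lay 3.14 SD from the median of all genes and KLF6 1.97 SD. The other 8 lay between 0.187 (KLF13) and 1.44 SD (KLF2). Variation between cultures is not part of this SD.

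**Figure D3:**
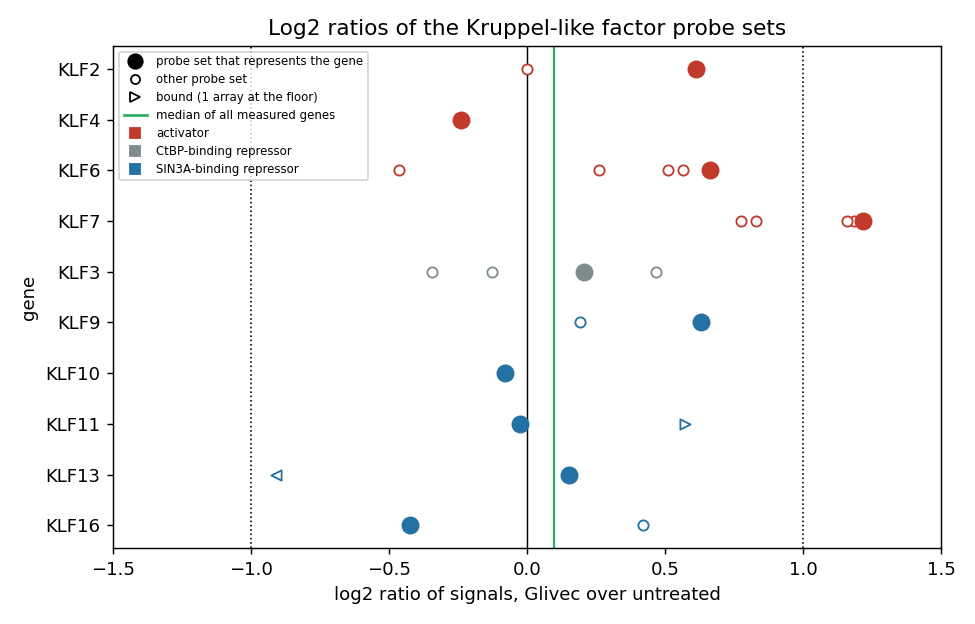
Log2 ratio of Glivec over untreated (x axis) for each member probe set with an array above the floor, by gene. Large points represent the gene, small open points are its other probe sets, triangles are bounds, dotted lines mark 2-fold and the green line is the median of all genes at 0.10. The KLF7 points run from 0.77 to 1.22, and 5 genes have points on both sides of 0.

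The rest of the family was mostly at or under the floor. Of 8 other KLF genes 7 had a probe set and 3 were measured, KLF5, KLF12 and KLF15. KLF15, a metabolic regulator and glucocorticoid target, had 23.7 with Glivec and 5.30 without by its brighter probe set, at least 1.73-fold higher. Its other probe set was under the floor on both arrays, at 2.32 with Glivec and 4.97 without. KLF12, another CtBP-binding repressor, had 23.9 against 10.4 by 1 of 8 probe sets, at least 1.74-fold higher. KLF5, better known from epithelia, had 23.3 against 21.6. KLF1, the erythroid factor, was under the floor on both arrays, at 12.0 with Glivec and 7.37 without. Of the SP factors, 5 of 9 were measured and none was past 2-fold, beside 3.13% of all genes higher and 2.63% lower. All 5 were positive (median log2 ratio 0.20), beside 59.0% of all genes. Under spike-in scaling all 5 were negative (median -0.53, beside -0.60 over all genes). SP3 had the highest ratio, with 1032 against 754 and a log2 ratio of 0.45, and other SP3 probe sets ran from -0.15 to 0.40.

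Among 16 cofactors and ubiquitin ligases that act on Kruppel-like factors, 8 were positive and 8 negative, with a median of 0.05. At 2-fold, 1 was higher and 0 lower, beside 3.13% and 2.63% of all measured genes. Under spike-in scaling 3 were positive and 13 negative, and 1 was higher and 2 lower past 2-fold. The median was then -0.69, beside -0.60 over all genes. With the mean over probe sets 0 were past 2-fold in either direction. The gene past 2-fold as reported was the ubiquitin ligase gene FBXO32, with 70.0 with Glivec and 9.16 without, at least 5.11-fold higher, although other FBXO32 probe sets ran from -0.47 to 1.93. The coactivator genes CREBBP and EP300 had log2 ratios of 0.89 and 0.74, with other probe sets from -0.19 to 0.49 for CREBBP. The corepressor gene CTBP1 was at 0.36 and CTBP2 at -0.36, with their other probe sets of the same sign. SIN3A was at -0.24, with others at -0.81 and 0.34.

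The ERK5 kinase MAPK7 acts through MEF2 factors to switch on KLF2 and KLF4 in endothelium. In that list of 11 genes 0 passed 2-fold in either direction, beside 3.13% of all genes higher and 2.63% lower. At 1.5-fold 4 were higher and 0 lower, beside 13.5% and 8.33% of all genes. The median was 0.16, with 7 positive and 4 negative. Under spike-in scaling 2 were positive and 9 negative, and the median was -0.58, beside -0.60 over all genes. HDAC5, a MEF2 corepressor, had 142 with Glivec against 74.3 and a log2 ratio of 0.94. MAPK7 had 70.5 against 39.1, or a log2 ratio of 0.85, but -0.98 by its other probe set. The upstream kinase MAP2K5 was at 0.70, with others from -0.41 to 0.42, and HDAC7 at 0.69. The MEF2 genes had probe sets of both signs. MEF2A was at -0.23, with others from -0.31 to 0.80, and MEF2C at -0.15, with others from -0.46 to 0.28. MEF2D was at -0.03, with others at 0.57 and 0.90.

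Of 10 genes known as KLF2 targets in T cells or endothelium or linked to it, 7 were measured, 4 positive and 3 negative, with a median of 0.27. At 2-fold, 2 were higher and 0 lower, beside 3.13% and 2.63% of all measured genes. Under spike-in scaling the counts were 0 and 2, beside 26 and 2291 of 11748 genes. The list median was then -0.27, beside -0.60 over all genes. CCR7, a lymph node homing receptor, had 48.8 with Glivec and 15.02 without, a log2 ratio of 1.70 from near the floor. TXNIP, an arrestin-family inhibitor of thioredoxin, had 2804 against 1162, a log2 ratio of 1.27, with others at 1.25 and 1.29. IL7R went the other way, with 233 against 357 and a log2 ratio of -0.62. ITGB7 was at 0.46, and THBD at -0.33, with others at -0.30 and -0.29.

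In the TGF-beta list that surrounds KLF10 and KLF11, 10 of 13 genes were measured, and the median was 0.14 with 6 positive and 4 negative. At 2-fold, 1 was lower and 0 higher, beside 2.63% and 3.13% of all measured genes. Under spike-in scaling all 10 were negative, with a median of -0.50, beside -0.60 over all genes. With the mean over probe sets 0 were past 2-fold. The receptor gene TGFBR1 had 80.1 with Glivec and 195 without, 2.44-fold lower, or a log2 ratio of -0.69 by its other probe set. TGIF1, TGFB1 and SMAD7 were at 0.56, 0.45 and -0.32. In the list of glucocorticoid and clock genes, which share inputs with KLF9 and KLF10, 11 genes were measured of 16 listed names. ARNTL and BMAL1 among these names are the same gene. As reported, 2 were at least 2-fold higher and 1 lower, beside 3.13% and 2.63% of all measured genes. The list median was 0.08. Quantile normalization, median centring and loess each gave 1 higher and 1 lower. Spike-in scaling gave 0 higher and 3 lower, with a median of -0.66, beside -0.60 over all genes. TSC22D3, a glucocorticoid and FOXO target, had 738 against 291 and a log2 ratio of 1.34. ZBTB16 had 69.4 against 34.3, a log2 ratio of 1.02, just past 2-fold. FKBP5, also in this list, was lower, with 847 against 1138 and a log2 ratio of -0.43, and its other probe sets were at -0.73 and -0.62. The clock gene PER2 had 76.9 against 226, 2.94-fold lower, and DBP was at 0.68. The glucocorticoid receptor gene NR3C1 was at 0.16, with others from -0.32 to 0.37. FOXO6, whose probe set may cross-hybridise, was at least 3.75-fold higher, and FOXO1, FOXO3 and FOXO4 were at 0.45, 0.36 and 0.20. With spike-in scaling 3 of these 4 FOXO genes were negative, with a median of -0.33, beside -0.60 over all genes.

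**Figure D4:**
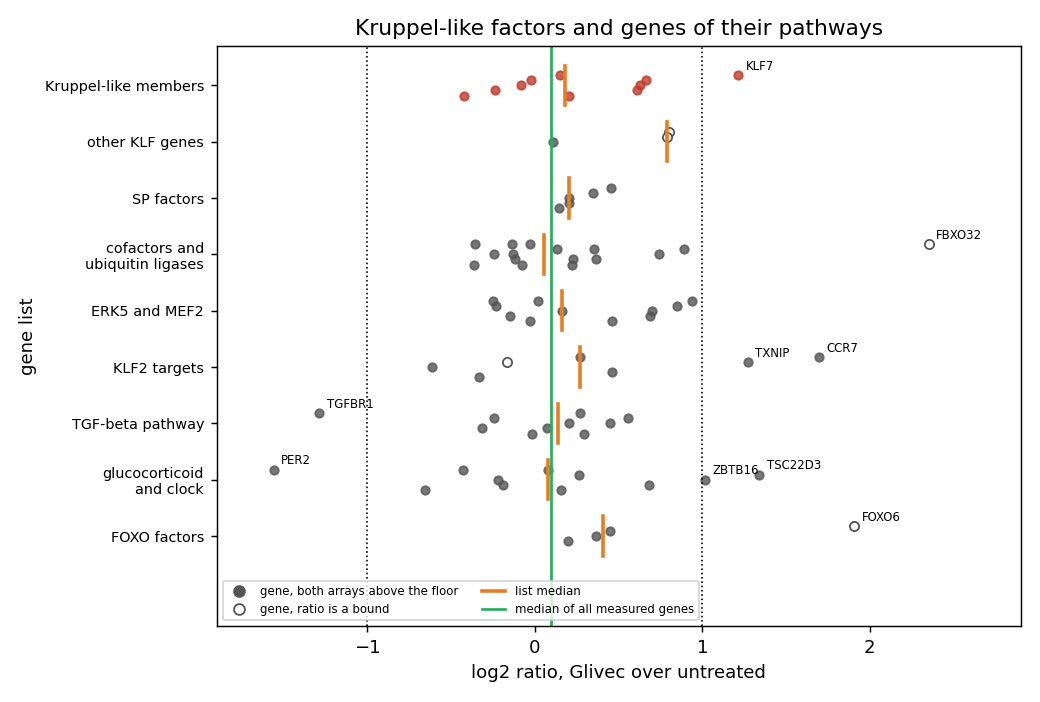
Log2 ratio of Glivec over untreated (x axis) for the 10 members (red) and the measured genes of 8 related lists (grey), with list medians in orange, bounds as open points, dotted lines at 2-fold and the median of all genes in green. List medians lie between 0.05 and 0.79, and the named points are the genes past 2-fold.

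KLF7 was positive under all 10 alternatives in which it had a value and past 2-fold in 7 of them. With plain _at probe sets alone it was at 0.77, with the floor at the 75th percentile its ratio became a bound of 0.19, and with spike-in scaling it was at 0.48. KLF6 lay above the median of all genes in 10 of 10 alternatives, by 0.21 to 0.65, and KLF9 in 8 of 8, by 0.32 to 0.55. KLF2 did so in 8 of 9, the exception being plain _at probe sets, where it was at 0.00. KLF4, KLF10 and KLF16 were negative in all 8, 9 and 9 alternatives that gave them a value, KLF16 by no more than -0.0018 with the mean over its probe sets. These counts are not counts of separate checks, because a floor below both signals, or a mean over 1 probe set, cannot change a ratio. KLF10, for example, was at -0.08 as reported, with each floor tried, with the pseudocount and with the mean over probe sets. Spike-in scaling lowered every member by construction, as it did the bulk of genes. With it 9 of 10 were negative, beside a median of -0.60 over all genes. KLF13 turned to -0.38, and KLF11 to 0.27, with the mean over probe sets.

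**Figure D5:**
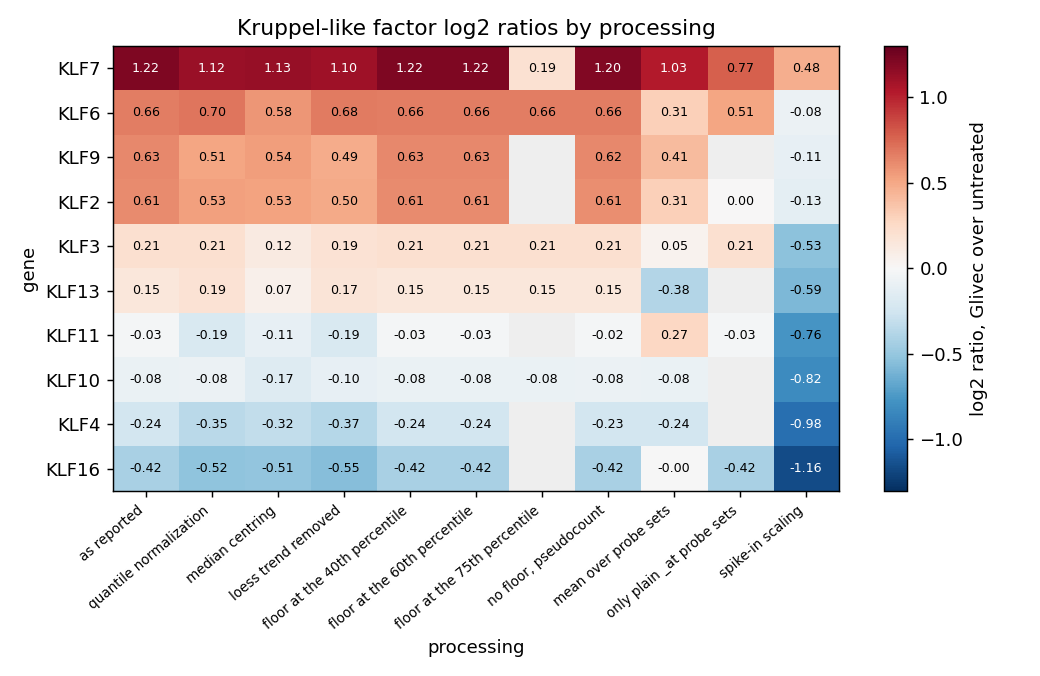
Log2 ratio of Glivec over untreated for each member (rows, highest first) as reported and under 10 alternatives (columns). Red is higher with Glivec, blue is lower and blank cells have no value under that alternative. KLF7 is positive in every column, from 0.19 to 1.22, and the spike-in column is shifted down for all members by construction.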

How the data were processed

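Biotinylated cRNA from total RNA was measured on Affymetrix arrays, per the labels' protocols. The deposited files hold linear signal intensities from MAS5 (named in the submitters' processing notes; version not given in the sources used here). Trimmed of 2% at each end, their mean was 100.0142 on either array, so a common scaling precedes deposit. Array number limits the precision.

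Probe sets were named from the platform annotation, where 41097 had 1 gene symbol, 1801 several and 11777 are unnamed here. Entrez identifiers matched 41043 probe sets to RefSeq GRCh38.p14 and changed 0 symbols. The brightest probe set by mean signal stood for each gene, with _x_at probe sets used where there was no other, and a gene counted as measured with an array above the floor. A ratio with 1 array at the floor is a bound. Lists held 87 entries, of which 80 had a probe set and 67 were measured. Named genes were all members and up to 4 genes of each list with the ratios largest in size, with others named to complete a family or group. The classes are background knowledge. Members and lists were chosen with earlier results of these data known.

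Alternatives were quantile normalization, median centring, loess (span 0.3), spike-in scaling, a floor at the 40th, at the 60th or at the 75th percentile, a pseudocount of 0.646 in place of a floor, averaging of a gene's probe sets, plain _at probe sets alone, and thresholds of 1.5-fold and 3-fold. Calculations used Python 3.11.15, numpy 2.4.6, pandas 2.3.3, scipy 1.17.1, statsmodels 0.14.6 and matplotlib 3.10.9. The code was run on simulated signals with less spread between probe sets than measured here and with changes beyond 2-fold. That run checks the code and cannot show how reliable ratios near 2-fold are.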

Additional observations from a re-analysis of the deposited data

How the results depend on the processing

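No paired analysis was possible because there is a lone array for Glivec and a lone array for untreated cells, and no replicate could be left out for the same reason. The count of members at least 2-fold higher was 0 with spike-in scaling, with the floor at the 75th percentile and with plain _at probe sets alone, 4 at 1.5-fold and 0 at 3-fold, against 1 as reported. With spike-in scaling 1 member was at least 2-fold lower (KLF16, at -1.16), against 0 as reported. The members' median moved to -0.56, beside -0.60 over all genes. Of 398 higher and 334 lower genes in all, spike-in scaling left 26 higher and gave 2291 lower. There were 735 higher with the floor at the 40th percentile, 234 higher at the 60th, and 91 higher and 176 lower at the 75th. Without a floor 911 were higher and 570 lower. At 1.5-fold 1710 were higher and 1058 lower, and at 3-fold 56 and 86. The share of higher genes was 34.1% with the floor at the 75th percentile. Single members moved by more than the probe set SD of their signal class in 15 comparisons with an alternative and by less in 76. The 76 include comparisons in which a ratio could not change, such as those with a floor below both of a member's signals. Loess, quantile normalization and median centring moved neither count of members nor their median by more than these limits. Fewer genes stood above the higher floors by construction, and elsewhere the cause was not tested. With the floor at the 75th percentile KLF2, KLF4, KLF9, KLF11 and KLF16 had no value.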

Other observations

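The genes that stood beside KLF7 for higher ratios in every one of at least 5 probe sets were picked after their values were seen. CREBRF, which encodes a regulator of CREB3 factors, had log2 ratios from 0.89 to 1.23 over 5 probe sets, MARCKS, a substrate of protein kinase C, from 0.84 to 1.33 over 5, and the transcription factor gene SOX4 from 0.83 to 1.19 over 5. All 3 are ratios of the same 2 arrays as KLF7.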
